A study of Mus musculus with 9 samples.

Results

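Interferon-stimulated antiviral effector genes encode the proteins with which a cell blocks viral RNA, protein synthesis and budding. The set described here was defined by gene symbol as 35 mouse genes, and all 35 were found among the 27179 genes of the expression table. Of these, 34 had a mean of at least 10 normalized counts (read counts divided by 1 scaling factor per library) and were tested, together with 12993 genes in all. The remaining member, Ifi44l, had a single read in the 9 libraries.

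The samples were bulk poly(A) RNA-seq libraries of a liver lobe (the m-lobe) from C57BL/6J mice of genotype WT, injected retro-orbitally at 17 months of age and harvested 3 weeks later. Every mouse received 3e+11 vector genomes of an AAV8 vector in which TBG, a hepatocyte promoter, drives the compact nuclease saCas9, together with a U6-driven guide RNA. In 5 mice the guide was directed at Ccnd1, the gene of cyclin D1 (sgCcnd1). In 4 control mice it was directed at Rosa26, a locus widely used as a neutral target (sgRosa26). All 9 livers had therefore been exposed to the vector and the nuclease, and no uninjected liver was analysed here. Editing was limited to cells that use the TBG promoter, whereas RNA came from the whole lobe. The series title places the question in inflammatory signalling of the aged liver. Libraries are named A to D for sgRosa26 and E to I for sgCcnd1.

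Interferons signal through cell-surface receptors and JAK kinases to transcription factors, among them the complex ISGF3. ISGF3 binds the interferon-stimulated response element (ISRE) in promoters of the effector genes, whereas interferon gamma acts mainly through a shorter palindrome called GAS. Hepatocytes, Kupffer cells, endothelial cells and leukocytes of the liver can all respond to interferon. In bulk RNA, fewer cells of a responding type and less RNA per cell cannot be told apart.

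Depth was 10.8 to 20.2 M gene-assigned reads (M, mega) in each library. Ccnd1 was at 684, 800, 625 and 867 normalized counts in A to D and at 428, 347, 370.1, 339 and 325 in E to I. It fell to 48.6% of the control mean (log2 fold change -1.03, SE 0.115, limma adjusted p = 0.0116). Leaving out any of B, D, F, H or I put that limma adjusted p between 0.0559 (D) and 0.0852 (B), with 0.0612 without H, and edgeR gave 0.056 without H. The summed level of 10 hepatocyte markers was 1767000 to 2064000 in sgRosa26 and 1657000 to 2139000 in sgCcnd1, so the defining transcripts of the tissue were abundant in each library. Library H stood apart in its Y-linked transcripts: Ddx3y was at 2.00 normalized counts in H against 810 to 1154 in the others, and Eif2s3y, Kdm5d and Uty were at 0. The labels do not give sex. Counts without H are given where a result rests on it.

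The promoters of these genes were examined for the letters that ISGF3 recognizes, and stretches upstream of the transcription start of 7 members are printed here to show how those letters are placed in the IFIT, OAS, ISG15, viperin and tetherin genes. RefSeq promoters (GRCm38.p6, 250 bases before to 50 after the start) were matched for 25 of the 35 members. The ISRE core searched was GAAANNGAAA, read as TTTCNNTTTC on the other strand. It was found in 11 of the 25 members (44%), against 3.99% of 27025 genes with a promoter and 3.44% of 32851 promoters. Matches may overlap each other. Capitals mark the bases inside a core match, and each stretch runs 5′ to 3′ along the gene's own strand.
Ifit1, chr19:34640765-34640833, plus strand: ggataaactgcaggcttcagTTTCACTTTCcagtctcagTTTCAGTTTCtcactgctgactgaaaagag
Ifit3, chr19:34583353-34583436, plus strand: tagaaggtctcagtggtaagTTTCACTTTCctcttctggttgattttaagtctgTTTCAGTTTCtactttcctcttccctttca
Isg15, chr4:156200855-156200916, minus strand: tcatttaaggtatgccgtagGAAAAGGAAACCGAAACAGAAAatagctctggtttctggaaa
Rsad2, chr12:26456543-26456592, minus strand: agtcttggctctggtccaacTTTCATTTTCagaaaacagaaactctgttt
Oas1a, chr5:120907526-120907565, minus strand: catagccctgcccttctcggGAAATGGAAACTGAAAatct
Oas1g, chr5:120887614-120887651, minus strand: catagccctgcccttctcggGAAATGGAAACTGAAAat
Bst2, chr8:71537567-71537622, minus strand: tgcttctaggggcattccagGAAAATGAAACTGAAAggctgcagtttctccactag

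Ifit1 and Ifit3 each carried 2 separate core matches, and Isg15 carried 3 that overlap. The stretch of Ifit3b at chr19:34607749-34607832 had the same 84 letters as that of Ifit3. The GAS palindrome TTCNNNGAA, which reads the same on both strands, was found in 6 of the 25 members (24%) and in 9.55% of genes and 8.3% of promoters. A match describes letters in this window and is not a measured binding site. The 11 members with an ISRE core had a median log2 fold change of -0.47, and 3 of them had groups that did not overlap. The 13 tested members with a matched promoter and no core in it had a median of -0.43, also with 3 non-overlapping. The 6 members with the GAS letters had a median of -0.15 and the 18 without had -0.55. Neither split by motif was tested. Bst2, Eif2ak2 and Oas1a held both motifs and had log2 fold changes of -0.14, -0.17 and -0.47.

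Across the set, levels were lower in sgCcnd1 for 32 of the 34 members tested, against 47.1% of all genes tested with a fold change below 0. No member passed limma at an adjusted p under 0.05 (0 of 34, against 0.0077% of all genes called lower, a share that is Ccnd1 alone). At an unadjusted p under 0.05, limma placed 19 members lower and 0 higher, against a background of 5.74% of genes lower. In 8 members every sgCcnd1 library lay below every sgRosa26 library, against 1.97% of genes: Ly6e, Cmpk2, Rsad2, Ifi44, Ifit1, Mx1, Oasl2 and Trim30a. The median log2 fold change of the members was -0.43 (range -0.89 to 0.03), and that of all genes tested was 0.014. The limma adjusted p of the members ran from 0.162 to 0.998, and the edgeR count model also called 0 of them.

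The count model DESeq2, run on whole reads recovered from the normalized values, called 8 members lower and 0 higher, where it called 0.549% of 12739 genes lower. These were Ly6e, Cmpk2, Rsad2, Ifi44, Ifit1, Mx1, Oasl2 and Isg15. The member calls thus differ between tools. Without library H, DESeq2 called 5 members, all among those 8 (Ly6e, Cmpk2, Rsad2, Ifit1 and Ifi44), gave Isg15 and Oasl2 adjusted p-values of 0.114 and 0.138, and gave Mx1 none. Without H, limma placed 16 members lower at an unadjusted p under 0.05, 8 members did not overlap and the median was -0.42. The shares of all genes above hold for all libraries, and those without H are not given here. The labels describe replicate mice. The p-values weigh the group difference against the spread between these samples, which each tool estimates in its own way.

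**Figure D1:**
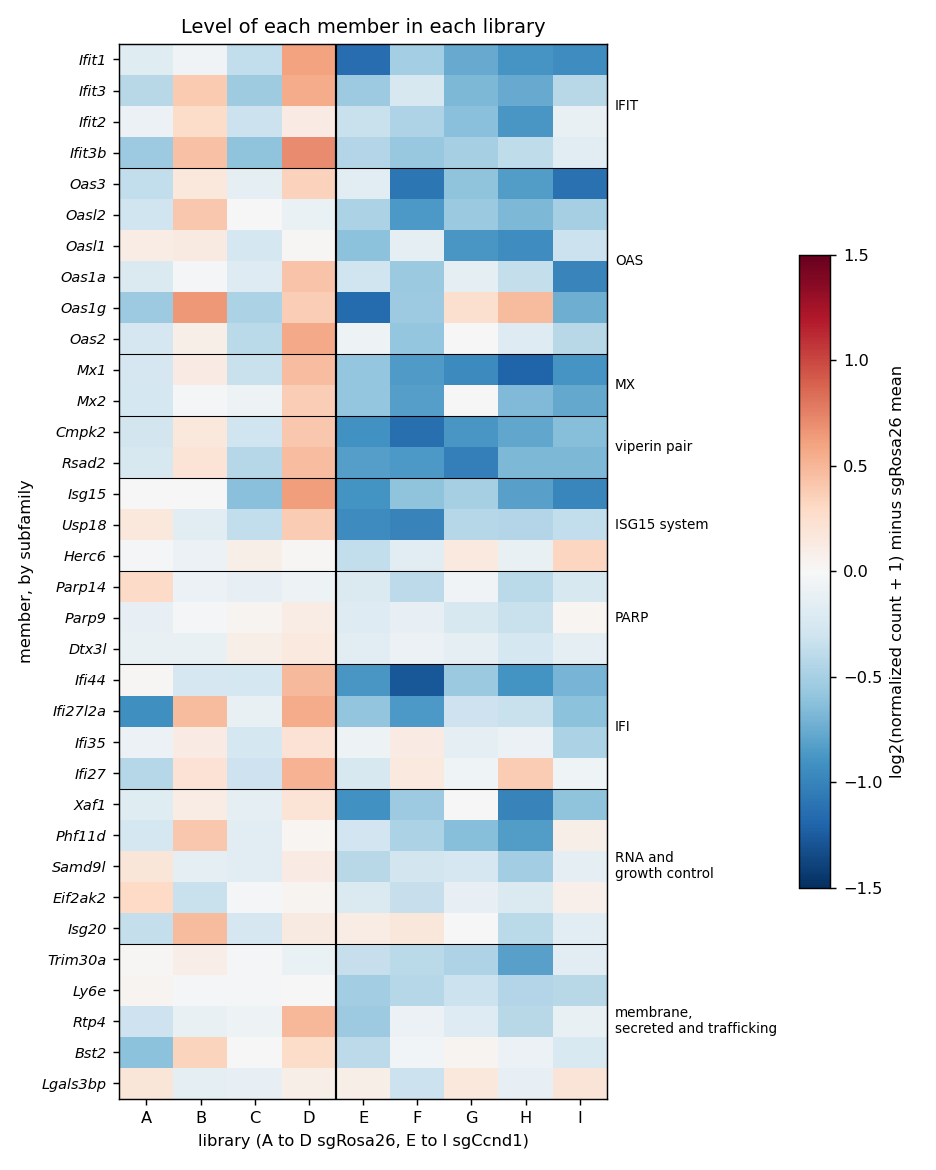
Level of the 34 tested members (rows, ordered by subfamily) in the 9 libraries (columns), as log2(normalized count + 1) minus the sgRosa26 mean of that gene, with blue for lower and red for higher. Most cells of columns E to I are blue, and library D is the reddest control column, holding the highest of the 9 values for 20 members.

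The IFIT proteins bind viral RNA that lacks the host's cap marks and keep it from being translated. Their genes lie side by side on chromosome 19, with gaps of 7.1 kb between Ifit2 and Ifit3, 19.2 kb between Ifit3 and Ifit3b and 27.5 kb between Ifit3b and Ifit1. All 4 were lower in sgCcnd1, with a median log2 fold change of -0.51, and 3 of 4 were below an unadjusted limma p of 0.05. Ifit1 (chr19:34640871-34650009, plus strand, GRCm38) was at 197, 215, 173 and 341 normalized counts in A to D and at 100.6, 157, 132, 121 and 116 in E to I. All sgCcnd1 values of Ifit1 were below the lowest control, and D was far above the other controls. The means were 231 ± 75.1 (SD, n = 4) and 125 ± 20.8 (SD, n = 5), 54.2% of control (log2 fold change -0.84, SE 0.187, limma adjusted p = 0.227, DESeq2 adjusted p = 0.00767).

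Ifit3, which stabilizes IFIT1 on RNA in human cells, and Ifit2 had log2 fold changes of -0.53 and -0.48. Ifit3b differed by -0.41, with a 95% confidence interval from -0.995 to 0.17. Its controls were uneven, with B and D at 57.0 and 69.0 normalized counts and A and C at 28.3 and 27.2, close to the 27.8 to 36.9 of the sgCcnd1 libraries. Ifit3 and Ifit3b are near copies. Of the 50-base windows of the longest Ifit3 transcript, 51.2% occurred in Ifit3b, and 44.5% of the Ifit3b windows occurred in Ifit3. Their separate values are uncertain because reads could be shared or split between them.

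**Figure D2:**
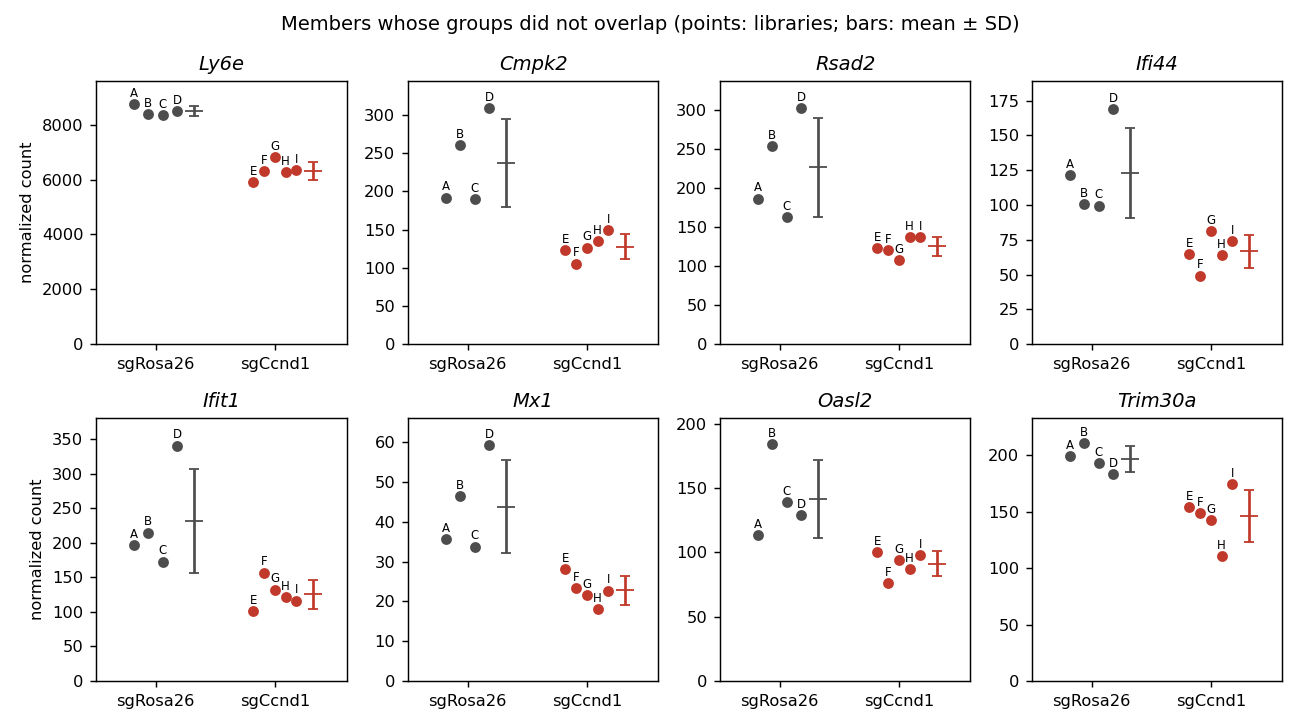
Normalized counts of the 8 members whose groups did not overlap, by library (points, lettered), with the group mean ± SD beside them (sgRosa26 n = 4, sgCcnd1 n = 5; every axis starts at 0). In each panel all 5 sgCcnd1 points lie below all 4 sgRosa26 points, with the lowest control between 1.05 times (Trim30a) and 1.27 times (Cmpk2) the highest sgCcnd1 value.

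The OAS proteins sense double-stranded RNA and make 2-5A, the second messenger that activates RNase L, and the OAS-like genes Oasl1 and Oasl2 belong to the same family. All 6 measured members were lower, with a median log2 fold change of -0.52, and 4 of 6 were below an unadjusted limma p of 0.05. Oasl2 (chr5:114896936-114912234, plus strand) was at 113, 184, 139 and 129 normalized counts in sgRosa26 and at 99.9, 76.1, 94.0, 87.0 and 97.9 in sgCcnd1. The groups of Oasl2 did not overlap, and A was the control nearest to the sgCcnd1 libraries. Means were 141 ± 30.4 (SD, n = 4) and 91.0 ± 9.67 (SD, n = 5), with a log2 fold change of -0.61 (SE 0.148, limma adjusted p = 0.252, DESeq2 adjusted p = 0.0328).

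Oasl1, known in mice as a repressor of Irf7 translation, was the most abundant OAS member by normalized count. It was at 503, 508, 386 and 470.0 in A to D (467 ± 56.6, SD, n = 4) and at 303, 419, 254, 243 and 370.4 in E to I (318 ± 75.8, SD, n = 5). Only library F lay above the lowest control, which was C. The log2 fold change was -0.58 (SE 0.16, limma adjusted p = 0.266, DESeq2 adjusted p = 0.0816). Oas3 and Oas1a had log2 fold changes of -0.76 and -0.47, Oas1g of -0.34 and Oas2 of -0.25. The interval of Oas1g ran from -1.19 to 0.51, and its values of 6.10 to 23.7 normalized counts overlapped between the groups. Oas1a and Oas1g share sequence (57.6% of the Oas1a windows and 54.1% of the Oas1g windows occur in the other), so their separate values are uncertain too.

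MX proteins are dynamin-like GTPases that trap viral nucleoproteins. C57BL/6 and most other inbred laboratory strains carry an Mx1 gene that makes no working protein. The transcripts of Mx1 and Mx2 are read here as expression values only. Mx1 (chr16:97447035-97462907, minus strand) was at 35.7, 46.5, 33.8 and 59.2 normalized counts in A to D and at 28.2, 23.3, 21.5, 17.99 and 22.7 in E to I. The groups were separate, with means of 43.8 ± 11.7 (SD, n = 4) and 22.7 ± 3.68 (SD, n = 5). Its log2 fold change was -0.89 (SE 0.209, limma adjusted p = 0.247, DESeq2 adjusted p = 0.0478).

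Mx2, 72.4 kb away on the opposite strand, was at 113, 133, 129.5 and 176 normalized counts in A to D and at 90.7, 76.1, 135, 86.0 and 79.5 in E to I. Library G lay within the control range and the other 4 sgCcnd1 libraries below it. The log2 fold change of Mx2 was -0.57 (SE 0.179, limma adjusted p = 0.306).

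Viperin, the product of Rsad2, converts CTP into a chain terminator of viral polymerases, and its neighbour Cmpk2 encodes a mitochondrial nucleotide kinase. The 2 genes lie 12.8 kb apart on chromosome 12 on opposite strands, and had the lowest subfamily median, -0.84. Rsad2 (chr12:26442746-26456452) was at 187, 254, 163 and 303 normalized counts in A to D and at 123.5, 121, 108, 138 and 138 in E to I. Cmpk2 (chr12:26469204-26479837) was at 192, 260.3, 189.6 and 309 in A to D and at 123.5, 106, 126, 135 and 149 in E to I. In both genes D was highest, B next, and A and C nearest to the sgCcnd1 libraries, which did not reach them.

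Cmpk2 was at 238 ± 57.7 normalized counts (SD, n = 4) in sgRosa26 and 128 ± 15.9 (SD, n = 5) in sgCcnd1, 53.8% of control. Its log2 fold change was -0.87 (SE 0.157, limma adjusted p = 0.174, DESeq2 adjusted p = 0.000329). Rsad2 was at 227 ± 63.7 (SD, n = 4) and 126 ± 12.7 (SD, n = 5), with a log2 fold change of -0.81 (SE 0.168, limma adjusted p = 0.225, DESeq2 adjusted p = 0.00263).

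ISG15 is a ubiquitin-like protein that is attached to other proteins during infection. HERC6 is the ligase that attaches it in mice, and USP18 removes it and restrains the type I interferon receptor. Isg15 (chr4:156199424-156200818, minus strand) was at 215, 217, 139.8 and 334 normalized counts in A to D and at 116, 142, 153, 123 and 109 in E to I. Libraries F and G lay above control C, and the other 3 lay below every control. Means were 227 ± 80.2 (SD, n = 4) and 129 ± 18.3 (SD, n = 5), with a log2 fold change of -0.76 (SE 0.204, limma adjusted p = 0.255, DESeq2 adjusted p = 0.0312).

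Usp18 was at 204, 163, 142 and 239.9 normalized counts in A to D and at 94.5, 91.3, 136, 135 and 142 in E to I. Control C and library I nearly coincided, and E and F were the lowest. The log2 fold change was -0.64 (SE 0.184, limma adjusted p = 0.279, DESeq2 adjusted p = 0.0761). Herc6 was at 249.6, 238, 269 and 256 in A to D (253 ± 12.9, SD, n = 4) and at 195, 225, 281, 235 and 317 in E to I (250.4 ± 48.1, SD, n = 5). Its sgCcnd1 libraries lay on both sides of the controls, and the log2 fold change was -0.04, with a 95% confidence interval from -0.32 to 0.25. The difference between the Isg15 and Herc6 fold changes was not tested.

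PARP9 and PARP14 belong to the poly(ADP-ribose) polymerase family, and DTX3L is the ubiquitin ligase that works as a complex with PARP9. These genes lie close together on chromosome 16, where Dtx3l and Parp9 overlap by 0.7 kb on opposite strands, so reads in the overlap could not be assigned to one of them unless strand was used. All 3 were lower, with a median log2 fold change of -0.17. Parp9 was at 889, 955, 1001 and 1050.0 normalized counts in A to D and at 849, 893, 825, 771 and 991 in E to I. Libraries F and I lay within the control range, and the log2 fold change was -0.17 (SE 0.089, limma adjusted p = 0.504). Parp14 had a log2 fold change of -0.26 and Dtx3l of -0.16.

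**Figure D3:**
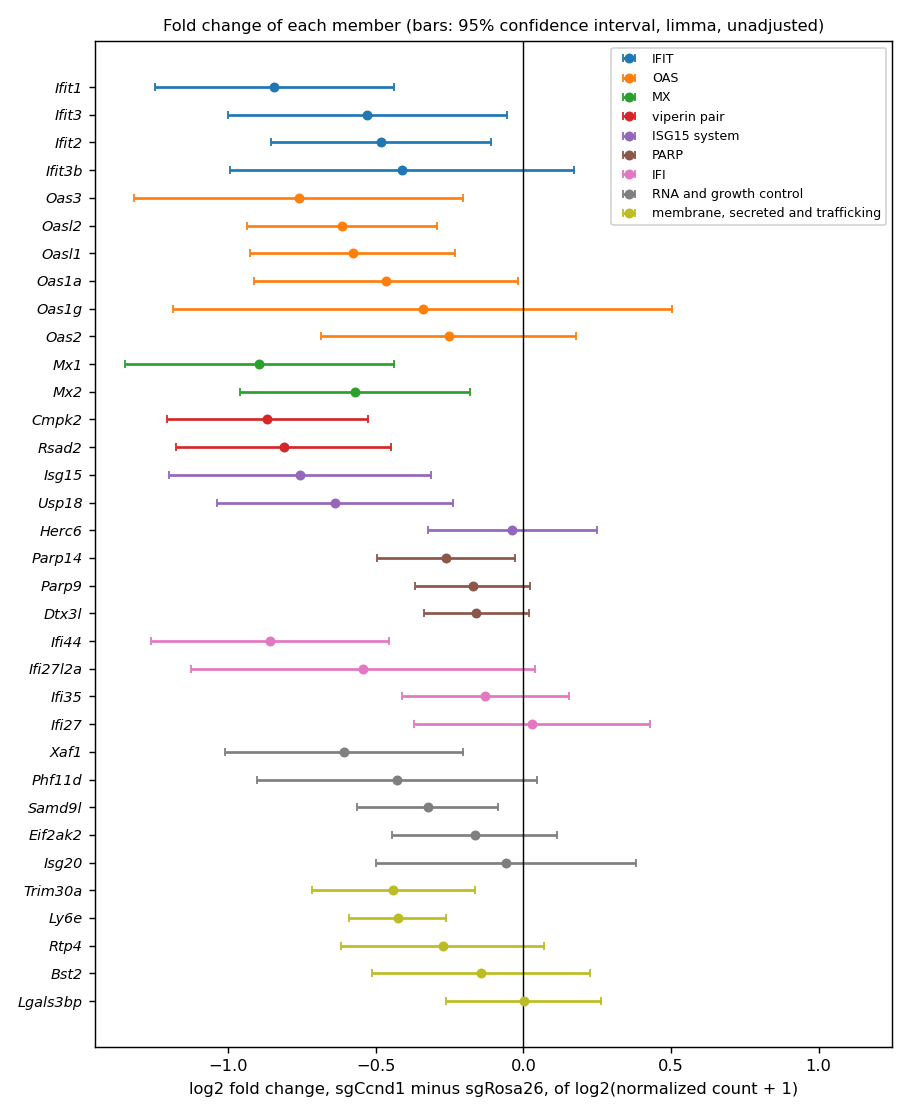
Log2 fold change of each tested member (points, coloured by subfamily) with its unadjusted 95% confidence interval from limma (bars), where values left of 0 are lower in sgCcnd1. Mx1, Cmpk2, Ifi44 and Ifit1 lie furthest left, the 3 PARP members lie between -0.26 and -0.16, and the intervals of Herc6, Ifi27 and Lgals3bp are centred close to 0.

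The IFI genes carry names given for induction by interferon rather than a shared structure. Ifi44 (chr3:151730922-151749960, minus strand) was at 122, 100.8, 99.5 and 169 normalized counts in A to D and at 64.8, 49.2, 81.3, 64.0 and 73.8 in E to I. The groups did not overlap, and D was again the highest control. Means were 123 ± 32.5 (SD, n = 4) and 66.6 ± 12.0 (SD, n = 5), with a log2 fold change of -0.86 (SE 0.185, limma adjusted p = 0.227, DESeq2 adjusted p = 0.00813). Its neighbour Ifi44l, 8.8 kb away, had its 1 read in library E.

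Ifi27, which encodes a mitochondrial protein, was at 1318, 2055, 1419 and 2535 normalized counts in A to D and at 1498, 1953, 1683, 2293 and 1686 in E to I. The ranges overlapped fully, and the log2 fold change was 0.03, with a 95% confidence interval from -0.37 to 0.43. Ifi27l2a, 1.9 kb away on the other strand, had a log2 fold change of -0.54, with an interval from -1.13 to 0.04. Its control A, at 34.4, lay below every sgCcnd1 library, whereas B, C and D, at 92.0, 61.0 and 97.1, lay above all of them. Ifi35 had a log2 fold change of -0.13.

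Among the genes that act on RNA or cell growth, Xaf1, an antagonist of the apoptosis inhibitor XIAP, was at 150.0, 185, 155 and 197 normalized counts in A to D and at 90.7, 116, 171 and 85.0 in E to H, whereas I was at 112. Library G lay within the control range. The log2 fold change was -0.61 (SE 0.185, limma adjusted p = 0.297). Samd9l, a brake on translation and growth, was at 391, 311, 309 and 375 in A to D and at 258, 285, 289, 239 and 311 in E to I, a log2 fold change of -0.32 (SE 0.11, limma adjusted p = 0.334). In this gene library I came within the control range. Phf11d was at -0.43 on the log2 scale, Eif2ak2, the gene of the RNA-activated kinase PKR, at -0.17, and the exonuclease gene Isg20 at -0.06.

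The membrane, secreted and trafficking members held both the gene with the smallest limma p of the set and the gene with the largest. Ly6e encodes a lipid-anchored surface protein that restricts entry of some viruses. Ly6e (chr15:74955051-74959905, plus strand) was at 8737, 8389, 8356 and 8487 normalized counts in A to D and at 5894, 6313, 6814, 6273 and 6343 in E to I. The lowest control stood well above the highest sgCcnd1 library. Means were 8492 ± 172 (SD, n = 4) and 6327 ± 327 (SD, n = 5), 74.5% of control (log2 fold change -0.43, SE 0.076, limma adjusted p = 0.162, DESeq2 adjusted p = 5.02e-08). With quantile normalization, Ly6e was the 1 member that limma called.

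Trim30a, which encodes a brake on Toll-like receptor signalling, was at 199, 211, 193 and 184 normalized counts in A to D and at 154, 149, 143, 111 and 175 in E to I. Library I lay just under the lowest control, D. The log2 fold change was -0.44 (SE 0.127, limma adjusted p = 0.279, DESeq2 adjusted p = 0.105). Bst2, the gene of tetherin, which holds budding virus at the cell surface, overlapped between groups (-0.14, with a 95% confidence interval from -0.51 to 0.23). Rtp4, a receptor chaperone gene, had a log2 fold change of -0.27, and Lgals3bp, which encodes a secreted galectin-binding glycoprotein, of 0.001, with an interval from -0.26 to 0.26.

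Levels of the 34 tested members were compared per kilobase of exon. In sgRosa26 Ly6e was highest at 2244 normalized counts per kb, followed by Bst2 at 2033 and Ifi27 at 1249. Isg15 was next at 299.7, the median member was at 59.2, and Oas3 was lowest at 3.72. Of the 3 most abundant members per kb, Ly6e was separated between groups while Bst2 and Ifi27 overlapped.

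Per-library spread was examined because the same controls were high for many members. Library D held the highest of the 9 values for 20 of 34 members, B for 8, A for 4 and I for 2. Among the 4 controls, C was the lowest for 16 members and A for 14. The median log2 level of the members relative to the control mean was -0.20 in A, 0.11 in B, -0.18 in C and 0.31 in D, against -0.43, -0.47, -0.28, -0.44 and -0.39 in E to I. For all genes tested the same median was between 0.000 and 0.026 in every library. The control libraries thus spread over 0.51 log2 units on this measure and the sgCcnd1 libraries over 0.19, with every sgCcnd1 library below every control.

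**Figure D4:**
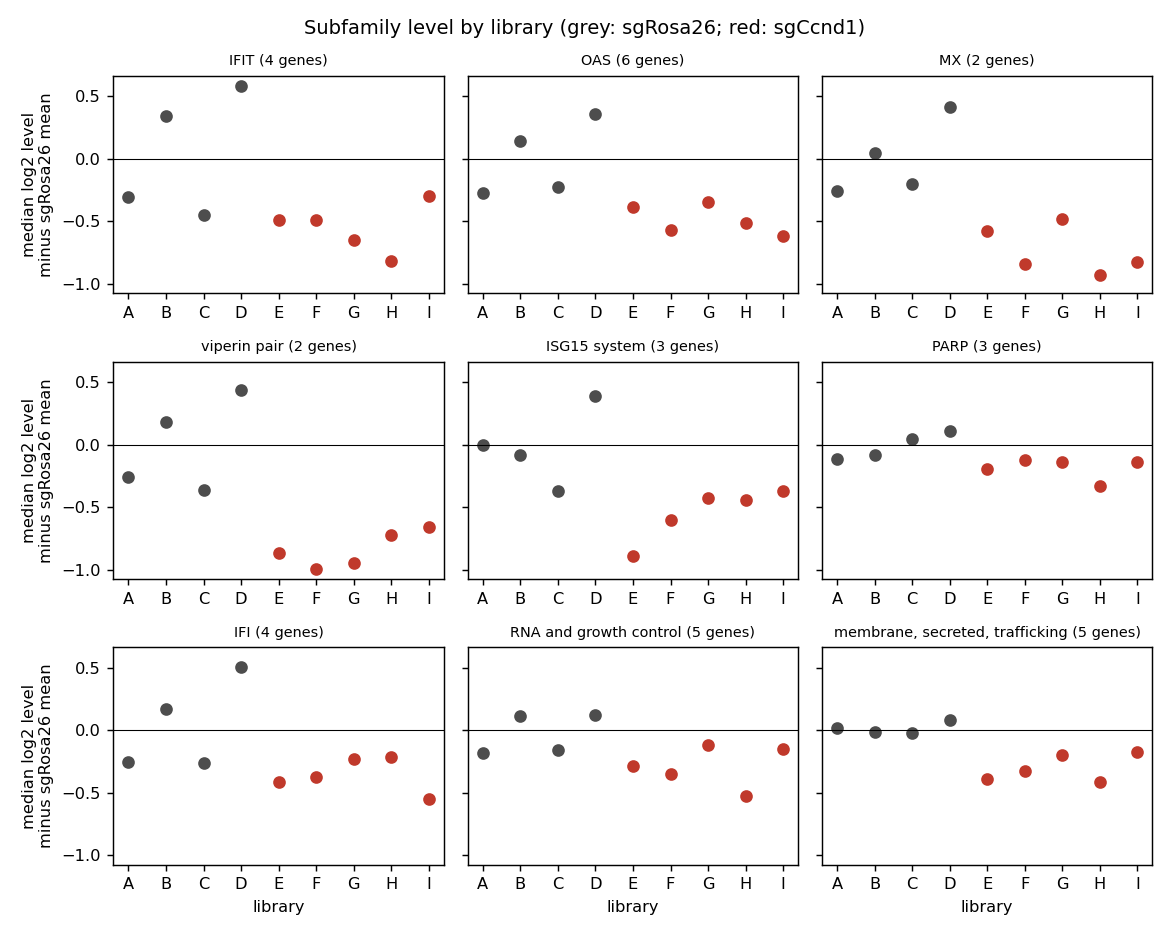
Median over the genes of each subfamily of log2(normalized count + 1) minus the sgRosa26 mean of the gene (vertical axis), by library (horizontal axis), with grey points for sgRosa26 and red for sgCcnd1. D is the highest control in each panel, and the red points lie below all grey points in the OAS, MX, viperin, PARP and membrane panels but not in the IFIT, ISG15, IFI and RNA panels.

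By subfamily, the medians of all 5 sgCcnd1 libraries lay below those of all 4 controls in the OAS, MX, viperin, PARP and membrane groups. In the IFIT genes, control C was at -0.45 and library I at -0.30. In the IFI genes, controls A and C, at -0.25 and -0.26, lay below libraries G and H, at -0.23 and -0.21. No test of these medians was made, since the genes were chosen with results of these data known. Leaving out library D moved the median of all members to -0.35, and leaving out A moved it to -0.52. Leaving out C raised the number of non-overlapping members from 8 to 13. Groups of any gene separate more easily when fewer libraries are compared, and the share of all genes without C is not given here.

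The coefficient of variation (CV, SD as a percent of the mean) of the members had a median of 22.6% in sgRosa26 and 15.7% in sgCcnd1. It was higher in sgRosa26 for 22 of 34 members (64.7%), against 56.7% of 12250 genes in the same range of means, whose medians were 13.7% and 12.2%. That range was wide, from 14.0 (Oas1g) to 7290 normalized counts (Ly6e), so these genes were not matched to the members by level. The IFIT genes were the most uneven among controls, with a median CV of 35.1% against 15.5% in sgCcnd1. The viperin pair had 26.2% against 11.3%, the IFI genes 28.8% against 16.3%, and the OAS genes 22.6% against 22.7%. PARP members varied least, at 9.24% and 9.54%. Ly6e was the steadiest control value, at 2.03%.

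**Figure D5:**
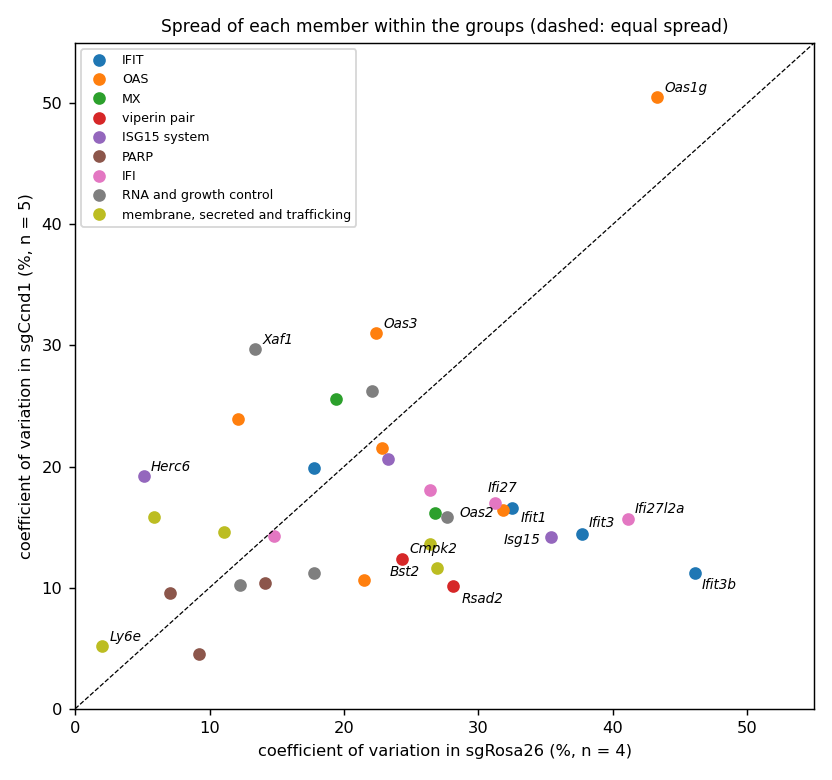
Coefficient of variation of each tested member in sgRosa26 (horizontal axis, percent, n = 4) against sgCcnd1 (vertical axis, percent, n = 5), coloured by subfamily, with a dashed line at equal spread. Of the 34 points, 22 lie below the line, with Ifit3b furthest to the right at 46.1% and 11.2%.

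The other genes of the pathway were taken from written lists in order of their place in the signal. Of 14 interferon ligand genes, none reached the mean needed for a test. Of these, 12 were listed at 0 in all 9 libraries, and Ifnk and Ifng did not exceed 2.00 and 2.91 normalized counts. Of 5 tested receptor genes, 2 were lower and 3 higher, with a median log2 fold change of 0.03 and 0 at an unadjusted limma p under 0.05. The 2 with the smallest p were Ifngr2 (-0.20) and Ifngr1 (-0.15), which encode the interferon gamma receptor. No gene of any pathway list passed limma at an adjusted p under 0.05, and edgeR called only Ccnd1 among all genes tested. With all libraries, 746 of 12993 genes tested were lower (5.74%) and 678 higher at an unadjusted limma p under 0.05. DESeq2 called 0.549% of 12739 genes lower, and in 1.97% of all genes tested every sgCcnd1 library lay below every control.

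Of 11 JAK, STAT and IRF genes, 8 were lower and 3 higher, with a median log2 fold change of -0.20, and 3 of the lower ones were at an unadjusted limma p under 0.05. DESeq2 called 1 of the 11 lower, with and without library H. Irf7, which amplifies type I interferon production, was at 870.5, 871, 822 and 1392 normalized counts in A to D and at 503, 697, 754, 663 and 657 in E to I. Its groups did not overlap, with D again the highest (log2 fold change -0.57, SE 0.158, limma adjusted p = 0.266, DESeq2 adjusted p = 0.0522).

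Of 18 nucleic acid sensing genes tested, 14 were lower, 5 of them at an unadjusted limma p under 0.05, with 1 higher at that p. The median was -0.23, and DESeq2 called 1. That gene was Zbp1, a sensor of Z-form nucleic acid (log2 fold change -0.80, limma adjusted p = 0.253, DESeq2 adjusted p = 0.0235). Without library H its DESeq2 adjusted p was 0.108, and 0 genes of the list were called. Dhx58, the RIG-I-like helicase LGP2, had a log2 fold change of -0.43 and groups that did not overlap. Of 8 feedback inhibitors, 4 were lower and 4 higher, with a median of -0.02 and 0 at an unadjusted limma p under 0.05. Ptpn1 (-0.21) and Ptpn6 (-0.14), both tyrosine phosphatase genes, had the smallest p in that list.

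Of 51 other antiviral interferon-induced genes, 47 were lower, with a median of -0.29. At an unadjusted limma p under 0.05, 19 were lower and 1 higher, and DESeq2 called 2 lower, Shisa5 (-0.44) and Ifi27l2b (-0.69). Without library H, DESeq2 called 1 of them, Ifi27l2b, and Shisa5 was at an adjusted p of 0.053. All 15 interferon-gamma GTPases, which attack the vacuoles of intracellular pathogens, were lower, with a median of -0.63. Of these, 12 were at an unadjusted limma p under 0.05 and DESeq2 called 4 (Gbp2, Gbp3, Irgm1 and Igtp, of which Gbp2 and Igtp are named after their values were seen). Without library H, DESeq2 called 1, Gbp3, whereas Gbp2, Irgm1 and Igtp were at adjusted p-values of 0.0683, 0.190 and 0.157. Gbp3 was at 166, 230.5, 160.5 and 201.0 normalized counts in A to D and at 100.6, 107, 123, 94.0 and 113.5 in E to I, without overlap (log2 fold change -0.80, SE 0.132, limma adjusted p = 0.136). Irgm1 had a log2 fold change of -0.44.

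Marker genes of other liver cells were measured beside the members. All 10 monocyte and macrophage markers had a limma log2 fold change below 0, with a median of -0.45, although that of Ly6c2 (-0.13) was above 0 with edgeR (0.23) and DESeq2 (0.21). Of the 10, 4 did not overlap between groups (Lyz2, Ccr2, Mpeg1 and Cd68), against 1.97% of all genes tested. DESeq2 called 3 of the 10 lower (Lyz2, Mpeg1 and Cd68), alongside the members it called and against 0.549% of 12739 genes. Without library H it called 2 of the 10 (Lyz2 and Mpeg1). The summed level of the 10 was 3140 to 3729 normalized counts in sgRosa26 and 2241 to 2739 in sgCcnd1. All 8 tested T and NK cell markers were lower (median -1.30), with summed levels of 105 to 296 and 45.0 to 214. The 7 tested B and plasma cell markers were lower too (median -0.41), with summed levels of 1213 to 2884 and 981 to 3017. Of 10 Kupffer cell markers 7 were lower, with a median of -0.06, and of 9 sinusoidal endothelial markers 7 were lower, also with a median of -0.06. All 5 tested dendritic cell markers were lower (median -0.36), as were 8 of 9 stellate cell markers (median -0.27). Of 5 tested neutrophil markers 3 were lower and 2 higher (median -0.42), with summed levels of 134 to 216 and 109 to 208. Of 5 tested cholangiocyte markers 3 were lower and 2 higher with limma (median -0.31), the 2 being Krt19 and Epcam, whose fold changes were below 0 with edgeR and DESeq2. Their summed levels were 928 to 1906 and 749.7 to 1165. Of 10 hepatocyte markers 6 were lower (median -0.005). No marker was at 0 in all libraries. Summed levels of the dendritic cell markers were 187 to 232 in sgRosa26 and 122 to 199 in sgCcnd1, and those of the stellate cell markers 5690 to 8551 and 4727 to 7195. The part of these cells in the member levels was not tested.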

How the data were processed

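The authors' deposited values are a signal that they call normalized counts, given for 27179 genes. Per the submitters' processing notes, Trim Galore 0.6.7, HISAT2 2.2.1, featureCounts 2.0.3, FastQC 0.74, MultiQC and DESeq2 2.11.40.8 were used with build mm10 (GRCm38), with no role or order given. The annotation, strand setting and filters are not given in the sources used here. In every library 100% of values up to 10000 reads were whole multiples of the value of 1 read (tolerance 0.1 read), so whole reads were recovered. In library H this value was 0.9996, and count models that leave H out were added after seeing the data. Columns name a guide target and were matched to groups only, and letters follow column order.

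Genes with a mean of at least 10 (12993) were tested on log2(value + 1) with limma 3.58.1 in R 4.3.3 (lmFit, eBayes with trend), two-sided, without covariates. This scale understates fold changes of low genes. P-values were adjusted by Benjamini-Hochberg over all genes tested, with a threshold of 0.05. On the recovered reads edgeR 4.0.16 called 1 gene with either scaling, and DESeq2 1.42.0 called 104 (254 adjusted p undefined). Procedures were run on simulated data, where recovered fold changes were checked for limma, edgeR and DESeq2. The limit on false calls was applied to limma and edgeR only, so it does not cover the DESeq2 calls. The members and lists were chosen with earlier results of these data known. Values in every library are given for the 12 members with the smallest p and the most abundant member of each subfamily, with the 2 smallest p of each pathway list named, except 1 gene left out of this account. Gene positions are from GENCODE vM21 and promoters from RefSeq GRCm38.p6. Reads carry no molecular identifiers, so depth covers counting error only. Figures used matplotlib 3.10.9.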

Additional observations from a re-analysis of the deposited data

Results flagged for a closer look

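Of 74 groups of values examined, 3 held a library far from the others of its group, where chance would give about 3.7. Mx2 in sgCcnd1 library G held 135 normalized counts, while E, F, H and I held 76.1 to 90.7. Parp14 in sgRosa26 library A held 778, while B, C and D held 588 to 604. Library A was also shallow among the controls, with 12.2 M gene-assigned reads (M, mega) against 16.2 to 16.6 M.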

How the results depend on the processing

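Across 22 alternatives, 30 of the 34 tested members kept their direction in every one that gave a value, and 4 (Ifi27, Lgals3bp, Isg20 and Herc6) did not. The count of members lower at an adjusted p under 0.05 was 1 with quantile normalization, 8 with DESeq2 and 5 with DESeq2 without library H, against 0 with limma, and 8 members were called in at least 1 alternative. With a minimum mean of 100, 21 members had a fold change below 0, of 23 tested. The IFI median was -0.34 in the main limma test. It was -0.13 without a filter, where Ifi44l is added, and -0.05 at a minimum mean of 100, where fewer genes are tested. Ifi27 turned to -0.042 with quantile normalization, -0.005 with 75th percentile scaling, -0.019 with edgeR TMM, -0.015 with edgeR RLE and with DESeq2, and without library H to -0.11 with both edgeR and DESeq2. Lgals3bp turned to -0.030 with quantile normalization, to -0.033 with 75th percentile scaling and to -0.004 with edgeR TMM, and Isg20 to 0.042 with quantile normalization. The cause was not tested. Without library H, edgeR gave Ccnd1 a log2 fold change of -1.02 with an adjusted p of 0.056.

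Leaving out 1 library at a time, the member median ran from -0.52 to -0.35, the IFI median from -0.50 to -0.21, the membrane median from -0.38 to -0.11, and the non-overlapping count from 8 to 13. The share of all genes without overlap in these smaller sets is not given here. Ccnd1 ran from -1.11 to -0.96, and its limma call was lost (adjusted p above 0.05) when any of B, D, F, H and I was left out. Ifi27 ran from -0.11 to 0.20, Lgals3bp from -0.049 to 0.083, Isg20 from -0.18 to 0.10 and Herc6 from -0.126 to 0.048. Members lower at an unadjusted limma p under 0.05 numbered 16 without H and 24 without A, and the shares of all genes in those sets are not given here. No paired analysis was possible because replicate numbers are missing from the column names, so the replicate block was not run. Depth limits Ifi44l, Oas1g and Oas3 most.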
